A study of Mus musculus with 21 samples.

Results

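The 33 genes described here carry out glycolysis or belong to the cell's response to low oxygen. They comprise 3 carriers of glucose and lactate (Slc2a1, Slc16a1, Slc16a3), 15 glycolytic enzymes counting isozymes (Hk1, Hk2, Gpi1, Pfkl, Pfkp, Pfkm, Aldoa, Tpi1, Gapdh, Pgk1, Pgam1, Eno1, Pkm, Ldha, Ldhb) and 3 regulators of the pathway's flux (Pfkfb3, Pfkfb4, Pdk1). The others are 4 oxygen-sensing factors and hydroxylases (Hif1a, Epas1, Egln1, Egln3) and 8 further targets of hypoxia (Bnip3, Vegfa, Ankrd37, Ndrg1, Adm, Mif, Kdm3a, Higd1a). The genes were chosen by symbol from a list, with earlier results of these data known. Their counts beside those of all genes are therefore descriptive. All 33 were found among the 23204 symbols of the count tables. A filter on low counts kept 31 of them. Pfkfb4, with 1 to 13 counts per library, and Ankrd37, with 0 to 7, were not tested.

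The study followed lung fibroblasts through 2 models of pulmonary fibrosis, which its design text calls reversible (bleomycin, BLM) and progressive (silica, SiO2). All mice, those of the untreated group included, were C57BL/6 females carrying a Col1a2-GFP transgene. BLM was given once at 2 mg/kg, and crystalline silica particles once at 400 mg/kg, each by oropharyngeal aspiration in 50 μL of saline. The 7 groups were untreated, BLM at day 7, 14 and 63, and SiO2 at day 7, 14 and 63, with 3 libraries each, 21 in all. The labels name no saline aspiration for the untreated group, so effects of the procedure and of the agent cannot be told apart. Live cells that were GFP positive and negative for Ter119, CD146, EpCAM, CD45 and CD31 were sorted, 10000 for each library, so the reporter of a collagen gene decided which cells were studied. Nothing in the labels ties the 3 libraries of a group to different animals; the p-values then measure only the spread between these libraries, which may be technical. All 6 comparisons with untreated share the same 3 untreated libraries.

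Glycolysis splits glucose into pyruvate and yields ATP without oxygen. Glucose enters through the carrier encoded by Slc2a1, hexokinase and phosphofructokinase commit it to the pathway, and lactate dehydrogenase turns pyruvate into lactate, which leaves through monocarboxylate carriers. When oxygen is low, the prolyl hydroxylases encoded by Egln1 and Egln3 slow down, the HIF-1α and HIF-2α proteins (Hif1a, Epas1) escape degradation, and with their partner they bind promoters that carry the letters ACGTG or GCGTG. This control acts mainly on the stability of the HIF proteins, which RNA libraries do not measure. Activated fibroblasts of fibrotic lung are known for high glycolysis and lactate release.

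Each library counted 3′ tags of polyadenylated RNA, with 2080636 to 4477283 counts per library. Levels are given as CPM, the count times 1000000 over the library's total after TMM scaling. Fold changes are on the log2 scale ± SE and come from 1 edgeR quasi-likelihood model of the 7 groups, with p-values adjusted over the 11669 genes tested; a gene is called at an adjusted p under 0.05. Defining markers of the excluded cells were near 0 in every library: Ptprc (CD45) reached at most 1.19 CPM, Epcam 1.21, Pecam1 (CD31) 0.467 and Mcam (CD146) 1.75. The fibroblast genes Col1a1, Dcn and Pdgfra were at 504 CPM or more, 5142 or more and 83.4 or more in every library. Within groups, some libraries differed more from the other pair than that pair did from each other. The chi-square per degree of freedom was 6.83 and 7.89 for SiO2 day 14 replicate 3, against 3.35 between replicates 1 and 2; 7.01 and 5.92 for BLM day 7 replicate 1, against 3.07 between the others; and 5.44 and 4.96 for BLM day 14 replicate 1, against 2.79. Groups of 3 were not tested for outliers, and calls lost without a library are named beside the values.

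The promoters of the genes are shown first because HIF acts through letters in them. RefSeq promoter windows (build GRCm38.p6, the 250 bases before each start, printed 5′ to 3′ on the gene's strand) were found for 31 of the 33 genes, 46 windows in all. Epas1 and Ndrg1 were not matched. ACGTG or GCGTG, searched on both strands, occurred in 35 of the 46 windows (76.1%) and in 12679 of all 32851 mouse windows (38.6%). Median GC content was 61.0% in the 46 windows and 52.4% in all windows. ACGTG alone was found in 43.5% of the 46 windows and in 16.6% of all. Capitals below mark every match to ACGTG or GCGTG on either strand; the palindrome CACGTG counts as 2 overlapping matches to ACGTG. The first 4 genes rose with treatment, and their windows are chr11:120948817-120949066 (plus strand) for Slc16a3, chr3:104638414-104638663 (plus strand) for Slc16a1, chr7:46845554-46845803 (plus strand) for Ldha and chr12:73907617-73907866 (plus strand) for Hif1a. The last windows, of a pair of known HIF targets, hold no match: chr10:75860278-75860527 (minus strand) for Mif and chr17:46032378-46032627 (minus strand) for Vegfa.
Slc16a3: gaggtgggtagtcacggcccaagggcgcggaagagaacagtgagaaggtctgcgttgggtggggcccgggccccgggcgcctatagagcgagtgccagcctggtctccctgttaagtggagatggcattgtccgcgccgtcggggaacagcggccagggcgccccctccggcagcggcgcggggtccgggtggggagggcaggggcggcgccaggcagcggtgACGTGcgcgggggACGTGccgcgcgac
Slc16a1: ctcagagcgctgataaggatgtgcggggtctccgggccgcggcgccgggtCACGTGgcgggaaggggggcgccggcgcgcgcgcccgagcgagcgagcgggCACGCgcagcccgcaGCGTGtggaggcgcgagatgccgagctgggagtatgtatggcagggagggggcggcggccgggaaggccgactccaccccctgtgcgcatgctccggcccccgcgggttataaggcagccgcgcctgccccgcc
Ldha: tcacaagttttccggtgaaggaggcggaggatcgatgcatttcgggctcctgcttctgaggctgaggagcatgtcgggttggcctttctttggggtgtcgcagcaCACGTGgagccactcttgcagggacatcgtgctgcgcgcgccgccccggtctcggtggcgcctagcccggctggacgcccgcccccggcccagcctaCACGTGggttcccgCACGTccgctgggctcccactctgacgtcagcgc
Hif1a: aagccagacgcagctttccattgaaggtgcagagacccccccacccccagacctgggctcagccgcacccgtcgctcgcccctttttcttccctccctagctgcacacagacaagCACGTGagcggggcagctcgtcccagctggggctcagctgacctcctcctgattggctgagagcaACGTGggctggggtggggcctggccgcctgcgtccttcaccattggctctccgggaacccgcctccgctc
Mif: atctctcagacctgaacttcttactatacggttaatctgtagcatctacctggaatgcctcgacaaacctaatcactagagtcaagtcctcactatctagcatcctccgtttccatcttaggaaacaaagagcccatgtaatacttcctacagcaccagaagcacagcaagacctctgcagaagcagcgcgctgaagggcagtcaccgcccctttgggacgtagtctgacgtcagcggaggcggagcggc
Vegfa: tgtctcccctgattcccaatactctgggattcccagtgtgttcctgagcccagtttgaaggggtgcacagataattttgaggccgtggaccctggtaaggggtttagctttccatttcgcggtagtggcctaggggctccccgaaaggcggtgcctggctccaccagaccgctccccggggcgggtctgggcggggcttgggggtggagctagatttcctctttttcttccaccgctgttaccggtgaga
The Slc16a3 window holds 2 matches to ACGTG, beginning 27 and 14 bases before the start. Ldha holds 5, counted over 2 palindromes and a further match. Mif rose and Vegfa fell in the data below, and neither printed window has these letters. Bases further upstream or after the start were not searched, so a window without a match does not mean a gene without such a site. A further Vegfa window in RefSeq, at a start inside the gene, holds 1 match of each kind. The printed windows do not stand for all 46. Pfkfb3, Adm, Kdm3a and Aldoa had called declines against untreated, and each has at least 1 window with a match. Tpi1 rose in SiO2 day 7, and its window holds none. A match is a description of the letters, not evidence of binding.

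In SiO2 at day 7 the carriers Slc16a1 and Slc16a3, the enzymes Pfkl, Tpi1, Gapdh, Pgk1, Pgam1, Eno1, Pkm and Ldha, and the factor Hif1a rose against untreated and were above BLM of the same day. The glucose carrier Slc2a1 and Hk2 also rose, with no called difference between the models at that day. Of the 31 tested genes 17 were higher and 5 lower than untreated in SiO2 day 7, where 23.4% of all tested genes were higher and 20.6% lower. Their median log2 fold change was 1.07, against 0.04 for all genes. In BLM day 7 the counts were 11 higher and 5 lower (all genes 16.7% and 14.9%), and the median was 0.03 against 0.02. The share that was lower, 5 of 31 in each model, was near that of all genes. Setting SiO2 against BLM at day 7, 16 genes were higher in SiO2 (5.29% of all genes) and 0 were lower (5.10% of all genes). No tested gene of the 31 was lower there at an unadjusted p under 0.05 in edgeR either, nor at an adjusted p in DESeq2 or limma-voom.

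At day 14 several glycolytic enzymes were lower in SiO2 than in BLM, the reverse of day 7. BLM day 14 had 14 higher and 8 lower than untreated (all genes 20.7% and 18.5%), with a median of 0.18 against 0.02. SiO2 day 14 had 11 higher and 3 lower (13.6% and 10.5%), with a median of 0.27 against 0.03. Between day 7 and day 14 of SiO2, 14 of the 31 genes fell (11.1% of all genes) and 0 rose (12.2% of all genes); 3 were higher at an unadjusted p, and 0 by DESeq2 or limma-voom. In BLM over the same interval 2 rose and 3 fell (5.20% and 4.82%). Directly compared at day 14, 7 genes were higher and 5 lower in SiO2 than in BLM (9.06% and 8.03%).

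At day 63 fewer genes were called against untreated in BLM than in SiO2. BLM day 63 had 4 higher and 2 lower than untreated (6.02% and 5.48% of all genes), while 6 genes had risen and 9 fallen since BLM day 14 (15.4% and 16.9%). SiO2 day 63 had 11 higher and 4 lower (15.3% and 12.5%), and since SiO2 day 14 only 2 genes, Aldoa and Ndrg1, rose and 0 fell (1.53% and 2.00%), with both rises lost when single libraries were left out, as given for each gene below; edgeR had 1 lower at an unadjusted p, DESeq2 and limma-voom 0. Against BLM day 63, SiO2 had 8 higher and 0 lower (9.13% and 6.44%), with 1 lower at an unadjusted p, 0 in DESeq2 and 1 in limma-voom. The count lower in BLM day 63 is near the share of all genes. The count higher is above that share, and it was 3 in DESeq2 and 2 in limma-voom. Since these are bulk libraries, a change in the number of cells of a kind and a change of RNA per cell cannot be told apart.

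The course over time differed between the models. From day 7 to day 14 the change in SiO2 minus the change in BLM was called negative for 15 of the 31 genes (9.47% of all genes) and positive for 2, Pfkfb3 and Vegfa (9.74% of all genes), with a median of -0.72 against -0.02 for all genes. The 15 comprised all 3 carriers, 8 enzymes, Hif1a, Bnip3, Ndrg1 and Mif. From day 14 to day 63 the same difference was called positive for 8 genes (9.70% of all genes) and negative for 2, Pfkp and Pfkfb3 (8.81%).

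**Figure D1:**
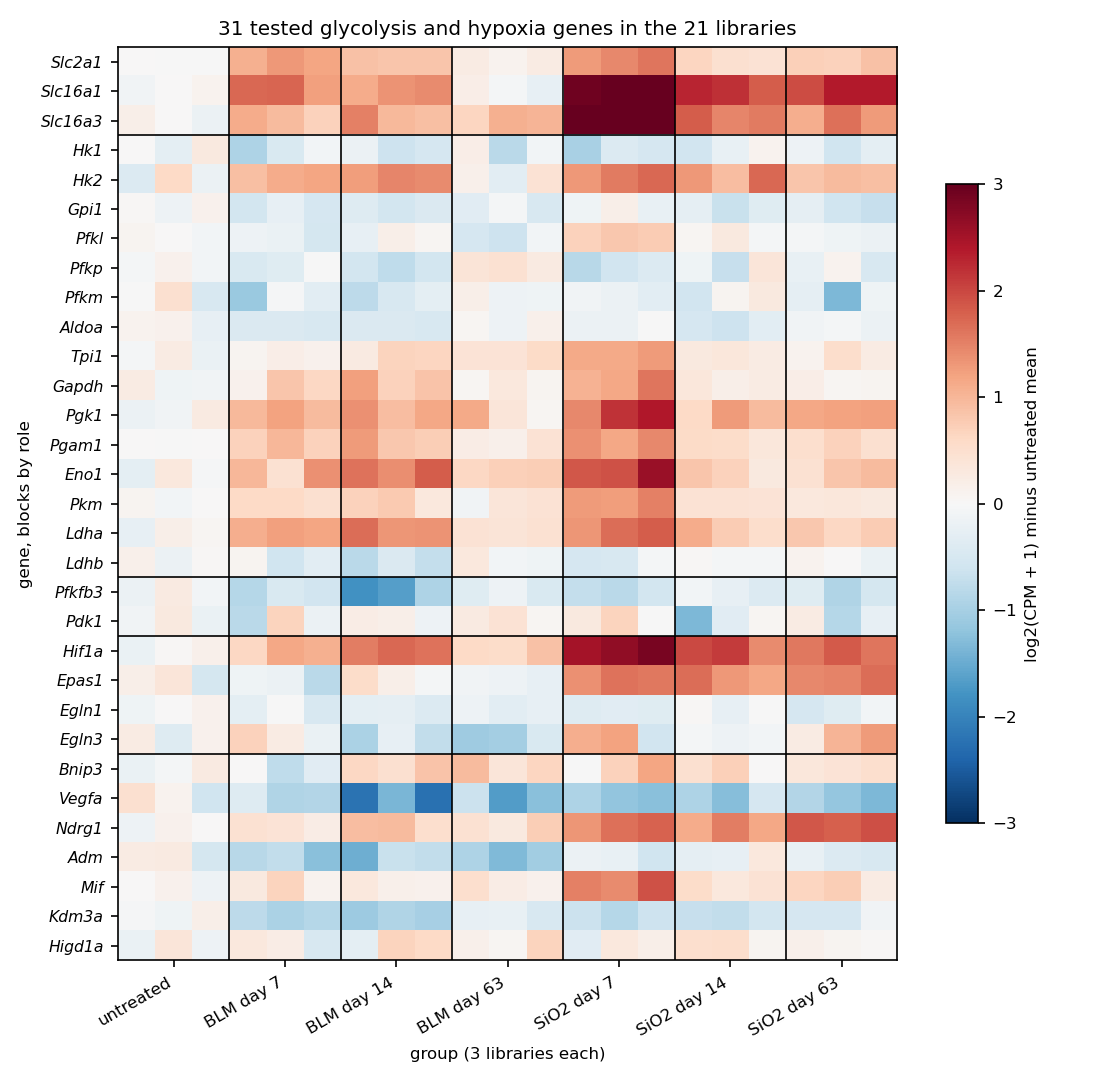
Each cell is a library's log2(CPM + 1) minus the untreated mean, for the 31 tested genes (rows, in blocks by role) and the 21 libraries (columns, in groups of 3); colours end at 3 in either direction. The carriers Slc16a1 and Slc16a3 and the factor Hif1a are darkest at SiO2 day 7, while Vegfa, Adm, Kdm3a and Pfkfb3 are blue in most treated groups.

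The highest group mean lay at SiO2 day 7 for 16 of the 31 genes (51.6%), as it did for 2280 of the 11669 tested genes (19.5%). Among the 15 glycolytic enzymes it lay there for 9. The lowest mean lay in the untreated group for 14 of the 31 (45.2%), against 24.1% of all tested genes. BLM day 7 and BLM day 14 held the highest mean of none of the 31, against 9.98% and 14.7% of all tested genes. The untreated group held the highest mean of 8 of the 31 (25.8%), against 22.0% of all tested genes. These positions describe the order of means, and neighbouring groups often overlapped.

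All 3 carriers rose at day 7 and day 14 of both models, and Slc16a3 showed the largest change of the 31 genes. Slc16a3 encodes MCT4, a monocarboxylate carrier known for exporting lactate from glycolytic cells. Slc16a3 was at 7.49, 6.51 and 5.60 CPM in the untreated libraries, at 15.3, 13.4 and 11.1 CPM at BLM day 7, at 20.4, 13.7 and 13 CPM at BLM day 14 and at 10.7, 14.6 and 14.2 CPM at BLM day 63. In SiO2, Slc16a3 was at 140, 161 and 165 CPM at day 7, at 25.2, 19.7 and 21.1 CPM at day 14 and at 14.9, 22.6 and 17.3 CPM at day 63. The SiO2 day 7 libraries lie far above every other library, and the remaining treated libraries lie above all untreated ones. Against untreated the change at SiO2 day 7 was log2 4.53 ± 0.19, adjusted p = 1.2e-17 by edgeR, and against BLM day 7 it was log2 3.54 ± 0.17, adjusted p = 2.2e-15. It fell from day 7 to day 14 of SiO2 (log2 -2.82 ± 0.16, adjusted p = 1.6e-13, edgeR). SiO2 and BLM did not differ past the threshold at day 14 (log2 0.50 ± 0.19, adjusted p = 0.068, edgeR) or day 63 (log2 0.47 ± 0.19, adjusted p = 0.095). Slc16a3 was the only carrier still called higher than untreated at BLM day 63 (log2 0.97 ± 0.23, adjusted p = 0.0045, edgeR).

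Slc16a1 encodes MCT1, a carrier that moves lactate and other monocarboxylates in either direction. Slc16a1 was at 35.6, 38.8 and 41.5 CPM in the untreated libraries, at 129, 132 and 91.6 CPM at BLM day 7, at 84.9, 99.2 and 104 CPM at BLM day 14 and at 44.7, 36.9 and 32.6 CPM at BLM day 63. In SiO2, Slc16a1 was at 297, 345 and 386 CPM at day 7, at 192, 179 and 139 CPM at day 14 and at 151, 206 and 206 CPM at day 63. SiO2 libraries were above all BLM libraries of the same day at each of the 3 days, and BLM day 63 libraries overlapped untreated. SiO2 exceeded BLM at day 7 (log2 1.54 ± 0.15, adjusted p = 5.6e-09, edgeR), at day 14 (log2 0.82 ± 0.15, adjusted p = 0.00013) and at day 63 (log2 2.30 ± 0.16, adjusted p = 3e-12). Against untreated, Slc16a1 still stood at 2.29 ± 0.16 on the log2 scale in SiO2 day 63 (edgeR adjusted p = 2.9e-12) and at -0.02 ± 0.17 in BLM day 63 (adjusted p = 0.97). Of the counts of both carriers, Slc16a3 made up 14.5% ± 2.75 (SD, n = 3) in untreated, 31.3% ± 1.17 at SiO2 day 7, 26.0% ± 5.89 at BLM day 63 and 8.87% ± 1.06 at SiO2 day 63. Tags per transcript do not scale with length in such libraries, but capture can differ between genes, so a share is compared between groups only. Shares were not tested.

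Slc2a1 encodes GLUT1, the widespread carrier for glucose uptake. Slc2a1 was at 110, 108 and 109 CPM in the untreated libraries, at 228, 268 and 249 CPM at BLM day 7, at 200, 194 and 193 CPM at BLM day 14 and at 129, 116 and 130 CPM at BLM day 63. In SiO2, Slc2a1 was at 267, 297 and 331 CPM at day 7, at 172, 151 and 148 CPM at day 14 and at 180, 176 and 203 CPM at day 63. Both models were highest at day 7, where their libraries overlapped at 267 and 268 CPM. At day 63 the BLM libraries were nearer to untreated than the SiO2 libraries. The rise against untreated was log2 1.19 ± 0.10, adjusted p = 2.9e-10 in BLM day 7 and log2 1.45 ± 0.10, adjusted p = 1.1e-12 in SiO2 day 7 by edgeR; between the models it was log2 0.26 ± 0.10, adjusted p = 0.089. At day 63 SiO2 was higher than BLM (log2 0.57 ± 0.10, adjusted p = 0.0001, edgeR). At day 14 it was lower than BLM (log2 -0.32 ± 0.10, adjusted p = 0.026), a call lost without any of 5 libraries, BLM day 14 replicates 1 to 3 and SiO2 day 14 replicates 2 and 3 (edgeR adjusted p up to 0.11). The last bases of Slc2a1 overlap a gene on the opposite strand, Gm12868, and no source used here states that counting used strand.

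**Figure D2:**
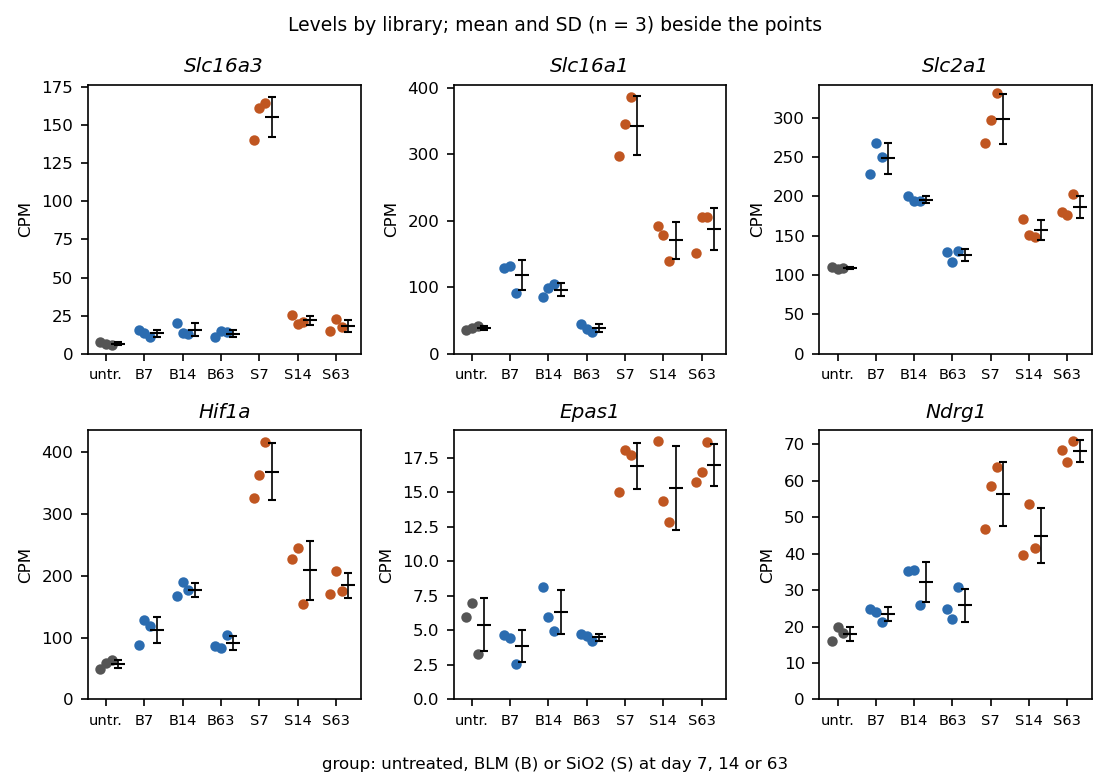
CPM per library (points) with the group mean and SD (n = 3) beside them, on linear axes that start at 0, for 6 genes that were higher in SiO2 than in BLM on at least 1 day. Slc16a3 is at 140 to 165 CPM in SiO2 day 7 and at 25.2 CPM or less elsewhere, while Epas1 and Ndrg1 stay high in SiO2 through day 63.

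Among the 15 glycolytic enzymes 9 rose and 1 fell in SiO2 day 7 (all genes 23.4% and 20.6%), 7 rose and 1 fell in BLM day 7 (16.7% and 14.9%), and 8 rose and 3 fell in BLM day 14 (20.7% and 18.5%). By SiO2 day 14 there were 5 higher and 1 lower (13.6% and 10.5%), by SiO2 day 63 there were 4 higher and 1 lower (15.3% and 12.5%), and in BLM day 63 none was called (6.02% and 5.48%). The 3 lower in BLM day 14 are near the share of all genes. At BLM day 63, edgeR had 5 higher and 1 lower at an unadjusted p under 0.05, and DESeq2 and limma-voom called 0. The median log2 fold change of the 15 was 0.11 in BLM day 7, 0.54 in BLM day 14, 1.19 in SiO2 day 7, 0.24 in SiO2 day 14 and 0.09 in SiO2 day 63. Against BLM, SiO2 had 9 of 15 higher and 0 lower at day 7 (5.29% and 5.10% of all genes), and 0 higher and 4 lower at day 14 (9.06% and 8.03%). At an unadjusted p, 0 were lower at day 7 and 2 were higher at day 14 in edgeR, and DESeq2 and limma-voom called 0 in both places.

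Hexokinase phosphorylates glucose on entry; the Hk2 form is inducible and the Hk1 form is the constitutive one in most tissues. Hk2 was at 21.9, 44.6 and 25.7 CPM in the untreated libraries, at 56.1, 64.8 and 68.2 CPM at BLM day 7, at 71.5, 82.2 and 79.4 CPM at BLM day 14 and at 32.5, 23.2 and 40.1 CPM at BLM day 63. In SiO2, Hk2 was at 74, 87.9 and 98.9 CPM at day 7, at 73.5, 56.6 and 99.1 CPM at day 14 and at 52.9, 57.6 and 55.5 CPM at day 63. All treated libraries of days 7 and 14, and those of SiO2 day 63, lay above the highest untreated library, and BLM day 63 overlapped untreated. Hk2 rose in BLM day 7 (log2 1.01 ± 0.21, adjusted p = 0.00033, edgeR), BLM day 14 (log2 1.31 ± 0.21, adjusted p = 5.7e-06), SiO2 day 7 (log2 1.48 ± 0.20, adjusted p = 5.5e-07) and SiO2 day 14 (log2 1.29 ± 0.20, adjusted p = 1.6e-05). In SiO2 day 63 its change was log2 0.82 ± 0.21, adjusted p = 0.0028 by edgeR, lost without untreated replicate 1 (adjusted p = 0.051). SiO2 also exceeded BLM at day 63 (log2 0.78 ± 0.20, adjusted p = 0.0066, edgeR), lost without BLM day 63 replicate 2 (adjusted p = 0.067).

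Hk1 was at 9.81, 7.76 and 12.1 CPM in the untreated libraries, at 4.63, 6.85 and 9.16 CPM at BLM day 7, at 8.45, 5.96 and 6.61 CPM at BLM day 14 and at 11.4, 5.15 and 9.09 CPM at BLM day 63. In SiO2, Hk1 was at 4.50, 7.15 and 6.56 CPM at day 7, at 6.22, 8.24 and 10.7 CPM at day 14 and at 8.64, 6.10 and 7.77 CPM at day 63. Hk1 libraries overlapped untreated or lay close to it in every group, and no comparison was called. Hk2 as a share of the counts of both was 74.1% ± 9.64 (SD, n = 3) in untreated, 93.5% ± 0.925 in SiO2 day 7, 91.7% ± 1.99 in BLM day 14 and 79.1% ± 4.43 in BLM day 63. Gpi1, the isomerase after hexokinase, was called only in SiO2 day 63 (log2 -0.53 ± 0.19, adjusted p = 0.035, edgeR), and that call was lost without untreated replicate 1 or 3 or SiO2 day 63 replicate 2 or 3 (adjusted p up to 0.15).

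Phosphofructokinase sets the pace of the pathway and has a liver form (Pfkl), a platelet form (Pfkp) and a muscle form (Pfkm). Pfkl was at 32.5, 30.8 and 28.9 CPM in the untreated libraries, at 27.5, 26.6 and 21.2 CPM at BLM day 7, at 25.7, 34.6 and 32 CPM at BLM day 14 and at 21.3, 19.7 and 28.8 CPM at BLM day 63. In SiO2, Pfkl was at 50.0, 54.3 and 52.7 CPM at day 7, at 32.3, 38 and 29.6 CPM at day 14 and at 29.3, 28.1 and 27.3 CPM at day 63. The 3 SiO2 day 7 libraries were above all other libraries, and the remaining groups overlapped or lay below untreated. Pfkl rose in SiO2 day 7 against untreated (log2 0.76 ± 0.15, adjusted p = 8.9e-05, edgeR) and against BLM day 7 (log2 1.06 ± 0.15, adjusted p = 6.6e-06), and fell again by SiO2 day 14 (log2 -0.65 ± 0.14, adjusted p = 0.00093).

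Pfkp was at 11.4, 13 and 11.2 CPM in the untreated libraries, at 8.39, 8.95 and 11.7 CPM at BLM day 7, at 7.75, 6.56 and 7.72 CPM at BLM day 14 and at 15.9, 16.6 and 14.4 CPM at BLM day 63. In SiO2, Pfkp was at 6.25, 7.68 and 8.58 CPM at day 7, at 10.7, 6.91 and 15.5 CPM at day 14 and at 9.95, 12.7 and 8.21 CPM at day 63. Pfkp was low at SiO2 day 7 and BLM day 14, and its group mean was highest at BLM day 63. The 2 declines against untreated were log2 -0.67 ± 0.25, adjusted p = 0.03 in SiO2 day 7 and log2 -0.70 ± 0.26, adjusted p = 0.031 in BLM day 14 by edgeR. The first was lost without untreated replicate 2 or SiO2 day 7 replicate 1 or 2 (adjusted p up to 0.11), and the second without untreated replicate 1 or 2 or any BLM day 14 library (up to 0.11). From day 14 to day 63 of BLM Pfkp rose (log2 1.09 ± 0.24, adjusted p = 0.00086, edgeR). Pfkp overlaps Pitrm1 on the opposite strand at its end.

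Pfkm was at 4.90, 7.26 and 3.27 CPM in the untreated libraries, at 1.74, 4.74 and 3.79 CPM at BLM day 7, at 2.47, 3.28 and 3.86 CPM at BLM day 14 and at 5.71, 4.29 and 4.43 CPM at BLM day 63. In SiO2, Pfkm was at 4.50, 4.24 and 3.78 CPM at day 7, at 2.96, 5.31 and 6.30 CPM at day 14 and at 3.93, 1.33 and 4.44 CPM at day 63. Pfkm was low throughout, its groups overlapped, and no comparison was called. Of the counts of the 3 forms Pfkl made up 64.5% ± 3.68 (SD, n = 3) in untreated, 81.8% ± 0.678 in SiO2 day 7, 74.3% ± 3.23 in BLM day 14 and 52.9% ± 6.56 in BLM day 63.

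**Figure D3:**
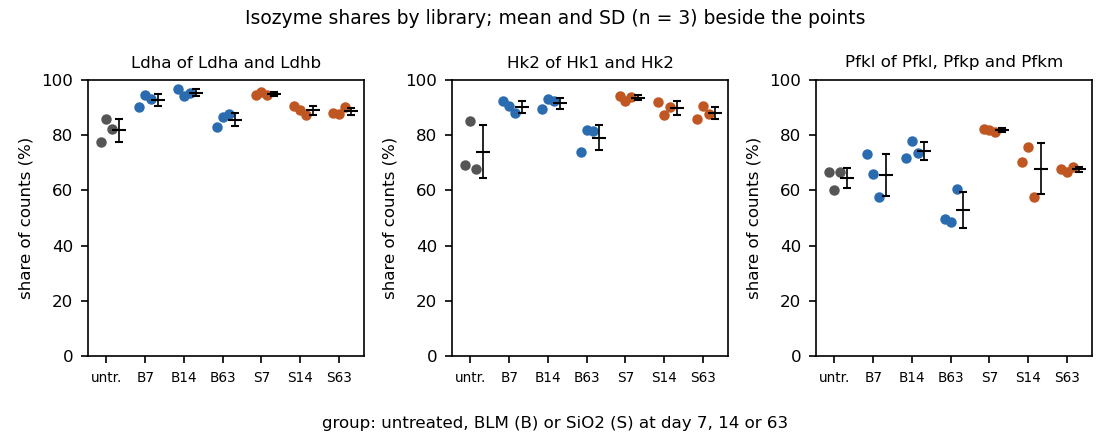
Share of counts (%) held by Ldha, Hk2 and Pfkl within their isozyme families, per library (points), with mean and SD (n = 3) beside them. The Ldha share lies between 94.5% and 95.6% in the 3 SiO2 day 7 libraries and between 77.4% and 85.7% in the untreated ones; the Pfkl share is highest at SiO2 day 7 and lowest at BLM day 63.

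The called changes of aldolase (Aldoa) against untreated were declines, as were those of Pfkp and Gpi1. Its levels were 2519, 2570 and 1990 CPM in untreated, 1744, 1725 and 1675 at BLM day 7, 1747, 1743 and 1682 at BLM day 14 and 2443, 2102 and 2591 at BLM day 63. In SiO2 they were 2063, 2070 and 2333 CPM at day 7, 1641, 1516 and 1880 at day 14 and 2185, 2246 and 2061 at day 63. The called groups lay below all untreated libraries. Aldoa fell in BLM day 7 (log2 -0.46 ± 0.10, adjusted p = 0.00065, edgeR), BLM day 14 (log2 -0.45 ± 0.10, adjusted p = 0.00053) and SiO2 day 14 (log2 -0.49 ± 0.10, adjusted p = 0.00044). Its difference between the models at day 7 (log2 0.33 ± 0.10, adjusted p = 0.03, edgeR) was lost without any BLM day 7 library or SiO2 day 7 replicate 2 or 3 (adjusted p up to 0.20). Its rise from day 14 to day 63 of SiO2 (log2 0.37 ± 0.10, adjusted p = 0.036, edgeR) was lost without SiO2 day 14 replicate 1 or 2 or any SiO2 day 63 library (adjusted p up to 0.16). RefSeq names 2 pseudogenes or related sequences of Aldoa, so its reads could be shared.

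Tpi1, which interconverts the triose phosphates, rose mainly in SiO2 day 7. Tpi1 was at 16.3, 20.3 and 14.5 CPM in the untreated libraries, at 17.9, 19.5 and 18.6 CPM at BLM day 7, at 20.4, 27.4 and 27 CPM at BLM day 14 and at 22.8, 22.6 and 25.5 CPM at BLM day 63. In SiO2, Tpi1 was at 38, 38.4 and 42.4 CPM at day 7, at 21, 21.5 and 20.1 CPM at day 14 and at 18.3, 24.7 and 20.2 CPM at day 63. The SiO2 day 7 libraries were well above all others. The change was log2 1.19 ± 0.15, adjusted p = 2e-07 against untreated and log2 1.08 ± 0.15, adjusted p = 6.3e-06 against BLM day 7 by edgeR. Tpi1 also rose in BLM day 14 (log2 0.54 ± 0.16, adjusted p = 0.0097, edgeR), a call lost without untreated replicate 1 (adjusted p = 0.053). Spsb2 lies over the end of Tpi1 on the opposite strand.

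Gapdh, Pgk1 and Pgam1 carry the pathway from the triose phosphates to phosphoglycerate, and Pgk1 makes the first ATP. Gapdh was at 18.8, 14.3 and 14.5 CPM in the untreated libraries, at 17.4, 28.7 and 24.6 CPM at BLM day 7, at 38, 26.2 and 29.5 CPM at BLM day 14 and at 16.4, 19.7 and 16.6 CPM at BLM day 63. In SiO2, Gapdh was at 33.3, 36.3 and 50.0 CPM at day 7, at 20.1, 17.8 and 18.9 CPM at day 14 and at 18.1, 16.5 and 16.6 CPM at day 63. SiO2 day 7 and BLM day 14 libraries were above all untreated ones, and the BLM day 7 libraries overlapped untreated. Gapdh rose in SiO2 day 7 (log2 1.31 ± 0.19, adjusted p = 1.1e-06, edgeR) and in BLM day 14 (log2 0.96 ± 0.20, adjusted p = 0.00021). SiO2 was above BLM at day 7 (log2 0.75 ± 0.18, adjusted p = 0.004, edgeR) and below it at day 14 (log2 -0.71 ± 0.19, adjusted p = 0.0069). The first of these was lost without BLM day 7 replicate 1 or SiO2 day 7 replicate 3 (adjusted p up to 0.081), and the second without BLM day 14 replicate 1 (0.073). The BLM day 7 change (log2 0.56 ± 0.20, adjusted p = 0.03, edgeR) was lost without untreated replicate 2 or 3 or BLM day 7 replicate 2 or 3 (up to 0.21). The counts assigned to Gapdh, a gene often used as a reference, thus moved by up to 1.31 on the log2 scale. They were at 50.0 CPM or less in every library, while the lowest group mean of Aldoa was 1679 CPM. Whether Gapdh lost reads to related sequences was not tested. RefSeq names 3 pseudogenes or related sequences of Gapdh, and Iffo1 lies on the opposite strand at its end.

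Pgk1 was at 10.6, 11.3 and 14.9 CPM in the untreated libraries, at 24.9, 29.5 and 24.3 CPM at BLM day 7, at 32.8, 23.8 and 28.1 CPM at BLM day 14 and at 28, 16 and 12.6 CPM at BLM day 63. In SiO2, Pgk1 was at 34.8, 58 and 68.4 CPM at day 7, at 19, 31.1 and 24.2 CPM at day 14 and at 28.3, 29.2 and 30.0 CPM at day 63. Every treated library of days 7 and 14, and each SiO2 day 63 library, was above the untreated ones; at BLM day 63 the libraries spread from 12.6 to 28 CPM. Pgk1 rose in SiO2 day 7 (log2 2.17 ± 0.25, adjusted p = 1.8e-08, edgeR) more than in BLM day 7 (log2 1.14 ± 0.26, adjusted p = 0.0012), with log2 1.03 ± 0.22, adjusted p = 0.0016 for the difference. It was still higher than untreated in SiO2 day 63 (log2 1.29 ± 0.26, adjusted p = 0.00026, edgeR). Pgk1 also has 3 RefSeq pseudogenes or related sequences, and the counts of both it and Gapdh are uncertain for that reason.

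Pgam1 was at 208, 205 and 209 CPM in the untreated libraries, at 337, 412 and 334 CPM at BLM day 7, at 506, 361 and 344 CPM at BLM day 14 and at 241, 231 and 281 CPM at BLM day 63. In SiO2, Pgam1 was at 540, 464 and 560 CPM at day 7, at 309, 302 and 261 CPM at day 14 and at 295, 336 and 292 CPM at day 63. Untreated libraries lay between 205 and 209 CPM, all treated ones lay above them, and SiO2 day 7 libraries and BLM day 14 replicate 1 were highest. Pgam1 rose by log2 1.33 ± 0.13, adjusted p = 4.5e-10 in SiO2 day 7 and by log2 0.96 ± 0.13, adjusted p = 3e-07 in BLM day 14 (edgeR). Its excess in SiO2 at day 7 was log2 0.53 ± 0.12, adjusted p = 0.0035 by edgeR. SiO2 was lower than BLM at day 14 (log2 -0.47 ± 0.12, adjusted p = 0.0067, edgeR), and this was lost without BLM day 14 replicate 1 or SiO2 day 14 replicate 3 (adjusted p up to 0.14). RefSeq names 2 related sequences of Pgam1.

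Eno1 and Pkm make phosphoenolpyruvate and pyruvate. Eno1 was at 1.81, 3.25 and 2.33 CPM in the untreated libraries, at 5.79, 3.69 and 7.90 CPM at BLM day 7, at 9.51, 8.04 and 11 CPM at BLM day 14 and at 4.22, 4.57 and 4.65 CPM at BLM day 63. In SiO2, Eno1 was at 11.5, 11.9 and 19.4 CPM at day 7, at 5.04, 4.52 and 3.15 CPM at day 14 and at 3.67, 5.04 and 5.55 CPM at day 63. Eno1 was at a few CPM in untreated and highest in SiO2 day 7, and the BLM day 14 libraries exceeded all SiO2 day 14 libraries. It rose in SiO2 day 7 (log2 2.50 ± 0.32, adjusted p = 1.3e-07, edgeR) and in BLM day 14 (log2 1.92 ± 0.34, adjusted p = 3.3e-05). The models differed at day 7 (log2 1.32 ± 0.27, adjusted p = 0.0011, edgeR) and, in the other direction, at day 14 (log2 -1.18 ± 0.30, adjusted p = 0.0054). The rise in BLM day 7 (log2 1.18 ± 0.37, adjusted p = 0.013, edgeR) was lost without untreated replicate 1 or BLM day 7 replicate 3 (adjusted p up to 0.094). Eno1b, a near copy, could take some of its reads.

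Pkm was at 48.3, 42.3 and 45.3 CPM in the untreated libraries, at 68.6, 68.5 and 63.2 CPM at BLM day 7, at 74, 78.1 and 56.2 CPM at BLM day 14 and at 42.2, 58.6 and 60.9 CPM at BLM day 63. In SiO2, Pkm was at 112, 109 and 131 CPM at day 7, at 61.6, 61.9 and 60.3 CPM at day 14 and at 56.6, 57.3 and 55.7 CPM at day 63. SiO2 day 7 libraries lay above all others, and the BLM day 63 libraries overlapped untreated. Pkm rose in SiO2 day 7 (log2 1.37 ± 0.13, adjusted p = 6.7e-10, edgeR) and differed there from BLM (log2 0.81 ± 0.13, adjusted p = 3.2e-05). Its rise in BLM was log2 0.56 ± 0.14, adjusted p = 0.0019 at day 7 and log2 0.61 ± 0.14, adjusted p = 0.00058 at day 14 by edgeR. The SiO2 day 14 rise (log2 0.44 ± 0.14, adjusted p = 0.018, edgeR) was lost without untreated replicate 2 or SiO2 day 14 replicate 2 (adjusted p up to 0.085).

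Lactate dehydrogenase converts pyruvate and lactate; the A form (Ldha) predominates in glycolytic tissues. Ldha was at 39, 52.6 and 48.1 CPM in the untreated libraries, at 99.2, 110 and 106 CPM at BLM day 7, at 149, 117 and 119 CPM at BLM day 14 and at 62.5, 60.3 and 64.3 CPM at BLM day 63. In SiO2, Ldha was at 116, 149 and 165 CPM at day 7, at 101, 78.4 and 66.9 CPM at day 14 and at 81.2, 71.9 and 79 CPM at day 63. All libraries of every treated group were above all untreated ones, with SiO2 day 7 and BLM day 14 overlapping at the top. Ldha rose in BLM day 7 (log2 1.18 ± 0.15, adjusted p = 2.4e-07, edgeR), BLM day 14 (log2 1.46 ± 0.15, adjusted p = 2.1e-09), SiO2 day 7 (log2 1.63 ± 0.15, adjusted p = 1.5e-10) and SiO2 day 63 (log2 0.74 ± 0.15, adjusted p = 0.00027), while BLM day 63 was not called (log2 0.43 ± 0.15, adjusted p = 0.063). At day 14 the SiO2 libraries, at 66.9 to 101 CPM, were above all untreated ones. They were lower than BLM of that day (log2 -0.65 ± 0.14, adjusted p = 0.00093, edgeR). The day 7 excess of SiO2 (log2 0.45 ± 0.14, adjusted p = 0.028, edgeR) was lost without any BLM day 7 library or SiO2 day 7 replicate 2 or 3 (adjusted p up to 0.22).

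Ldhb was at 11.4, 8.76 and 10.3 CPM in the untreated libraries, at 10.7, 6.32 and 7.90 CPM at BLM day 7, at 5.28, 7.15 and 5.79 CPM at BLM day 14 and at 12.9, 9.44 and 9.09 CPM at BLM day 63. In SiO2, Ldhb was at 6.75, 6.89 and 9.59 CPM at day 7, at 10.4, 9.56 and 9.69 CPM at day 14 and at 11, 10.1 and 8.65 CPM at day 63. Ldhb overlapped untreated in most groups and was lowest in BLM day 14 (log2 -0.73 ± 0.25, adjusted p = 0.022, edgeR). That decline was lost without untreated replicate 1 or BLM day 14 replicate 1 or 3 (adjusted p up to 0.098). Ldha as a share of the counts of both was 81.9% ± 4.17 (SD, n = 3) in untreated, 95.4% ± 1.16 in BLM day 14, 94.9% ± 0.614 in SiO2 day 7 and 85.7% ± 2.46 in BLM day 63. RefSeq names 3 pseudogenes or related sequences of Ldha and 1 of Ldhb.

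**Figure D4:**
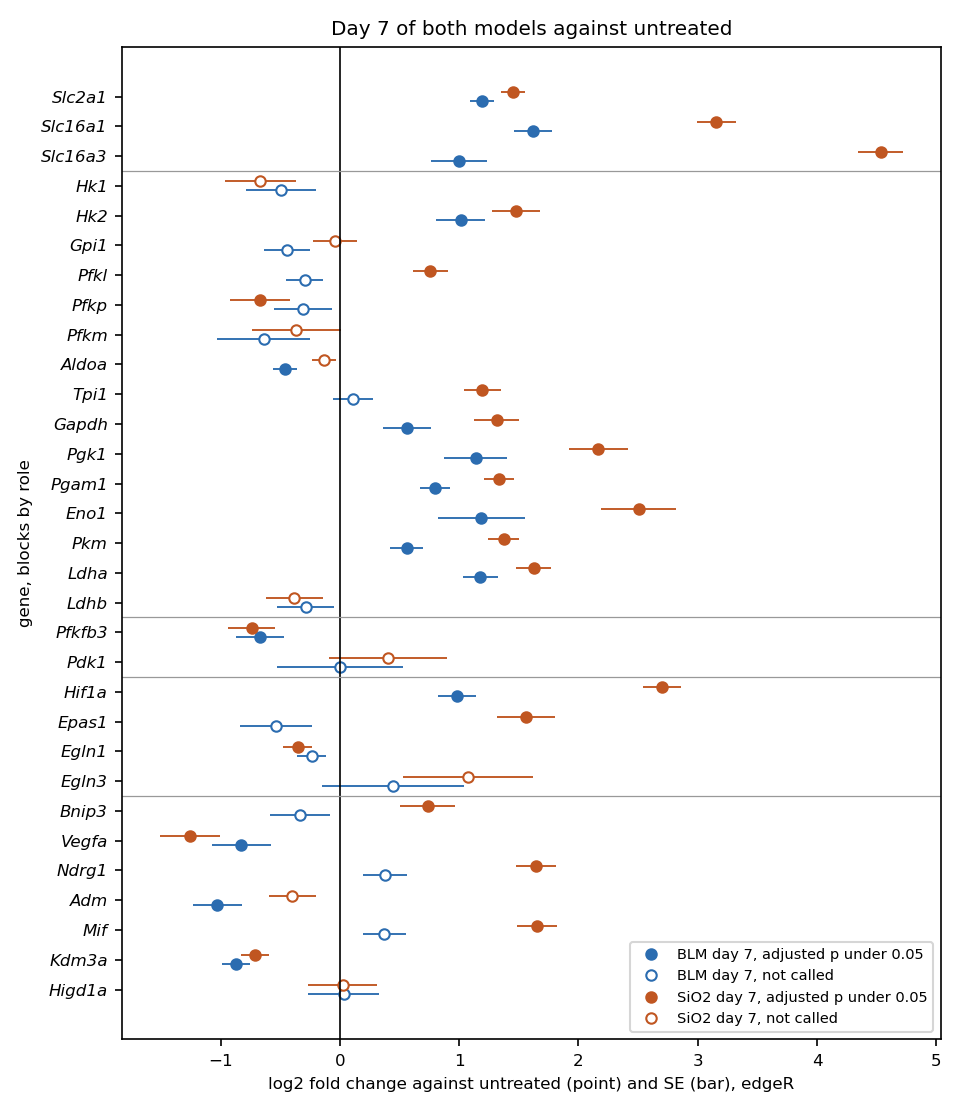
Log2 fold change against untreated (points, edgeR) with SE (bars) at day 7 of BLM (blue) and SiO2 (orange) for the 31 tested genes; filled points were called. Slc16a3 reaches 4.53 in SiO2 and 0.99 in BLM, and the 7 glycolytic enzymes higher in both lie further right in SiO2.

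Pfkfb3 makes the activator of phosphofructokinase and is a known hypoxia target. It was called lower in both day 7 groups, BLM day 14 and SiO2 day 63, where most called enzymes were higher. In SiO2 day 14, where most called enzymes were also higher, Pfkfb3 was not called. Pfkfb3 was at 21.7, 30.0 and 23.3 CPM in the untreated libraries, at 13.3, 17.6 and 16.4 CPM at BLM day 7, at 6.34, 7.15 and 12.7 CPM at BLM day 14 and at 19.1, 22 and 17.7 CPM at BLM day 63. In SiO2, Pfkfb3 was at 14.8, 13.8 and 16.7 CPM at day 7, at 23.4, 20.7 and 18.4 CPM at day 14 and at 19.1, 12.7 and 16.9 CPM at day 63. BLM day 14 libraries were lowest, and the day 7 libraries of both models were below all untreated ones. Pfkfb3 fell in BLM day 14 (log2 -1.50 ± 0.22, adjusted p = 2.2e-06, edgeR) and SiO2 day 7 (log2 -0.74 ± 0.20, adjusted p = 0.0031), and at day 14 it was higher in SiO2 than in BLM (log2 1.22 ± 0.22, adjusted p = 0.00015). The BLM day 7 decline (log2 -0.67 ± 0.20, adjusted p = 0.011, edgeR) was lost without untreated replicate 2 or BLM day 7 replicate 1 (adjusted p up to 0.11). The SiO2 day 63 decline (log2 -0.63 ± 0.20, adjusted p = 0.016, edgeR) was lost without untreated replicate 2 or SiO2 day 63 replicate 2 (up to 0.14). Pdk1, the kinase that shuts pyruvate dehydrogenase, ranged from 0.296 to 4.24 CPM over all libraries and was called in no comparison. Pfkfb4 was counted at 118 reads over all 21 libraries, at most 13 in any.

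Hif1a mRNA rose in all 6 treated groups and peaked at SiO2 day 7. Hif1a was at 49.6, 58.6 and 63.5 CPM in the untreated libraries, at 87.9, 129 and 119 CPM at BLM day 7, at 167, 189 and 177 CPM at BLM day 14 and at 86.3, 83.5 and 105 CPM at BLM day 63. In SiO2, Hif1a was at 326, 364 and 418 CPM at day 7, at 228, 245 and 155 CPM at day 14 and at 171, 208 and 175 CPM at day 63. SiO2 day 7 libraries were above every other library, and no treated library overlapped untreated. The change was log2 2.70 ± 0.16, adjusted p = 1.8e-14 in SiO2 day 7, log2 1.70 ± 0.16, adjusted p = 7.9e-10 in SiO2 day 63, log2 1.65 ± 0.16, adjusted p = 9.1e-10 in BLM day 14 and log2 0.69 ± 0.16, adjusted p = 0.0036 in BLM day 63 by edgeR. SiO2 exceeded BLM at day 7 (log2 1.72 ± 0.15, adjusted p = 9.3e-10, edgeR) and day 63 (log2 1.01 ± 0.15, adjusted p = 8e-06), and the models did not differ past the threshold at day 14 (log2 0.23 ± 0.15, adjusted p = 0.31). Gm15283 overlaps the end of Hif1a on the opposite strand.

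Epas1, which encodes HIF-2α, separated the models at each day. Epas1 was at 5.94, 7.01 and 3.27 CPM in the untreated libraries, at 4.63, 4.48 and 2.53 CPM at BLM day 7, at 8.10, 5.96 and 4.96 CPM at BLM day 14 and at 4.71, 4.57 and 4.21 CPM at BLM day 63. In SiO2, Epas1 was at 15, 18 and 17.7 CPM at day 7, at 18.7, 14.3 and 12.8 CPM at day 14 and at 15.7, 16.5 and 18.6 CPM at day 63. All 9 SiO2 libraries were at 12.8 CPM or more and all 12 others at 8.10 CPM or less. Epas1 rose against untreated in SiO2 day 7 (log2 1.56 ± 0.24, adjusted p = 3.9e-06, edgeR), day 14 (log2 1.41 ± 0.25, adjusted p = 5.9e-05) and day 63 (log2 1.57 ± 0.24, adjusted p = 6.9e-06), and in no BLM group. SiO2 against BLM gave log2 2.10 ± 0.26, adjusted p = 6.1e-07 at day 7, log2 1.28 ± 0.24, adjusted p = 0.00025 at day 14 and log2 1.91 ± 0.24, adjusted p = 6.2e-07 at day 63 (edgeR). From day 7 to 14 the model by time difference was not called (log2 -0.82 ± 0.37, adjusted p = 0.12, edgeR).

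The hydroxylase Egln1 moved little and Egln3 was scarce. Egln1 was called lower in BLM day 14 (log2 -0.32 ± 0.12, adjusted p = 0.04, edgeR) and SiO2 day 7 (log2 -0.36 ± 0.12, adjusted p = 0.02). The first was lost without untreated replicate 2 or 3 or any BLM day 14 library (adjusted p up to 0.15), the second without untreated replicate 2 or 3 (up to 0.073). Egln3 was at 2.06, 1.00 and 1.87 CPM in the untreated libraries, at 3.18, 2.11 and 1.26 CPM at BLM day 7, at 0.352, 1.19 and 0.551 CPM at BLM day 14 and at 0.248, 0.286 and 0.887 CPM at BLM day 63. In SiO2, Egln3 was at 4.50, 5.03 and 0.757 CPM at day 7, at 1.48, 1.33 and 1.45 CPM at day 14 and at 2.10, 4.25 and 5.32 CPM at day 63. At day 63 the 3 SiO2 libraries exceeded the 3 BLM libraries, which were below 1 CPM (log2 2.9 ± 0.63, adjusted p = 0.0013, edgeR). No comparison of Egln3 with untreated was called.

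Among the 7 tested other targets of hypoxia, calls were found in both directions. In BLM day 7, 0 were higher and 3 lower (all genes 16.7% and 14.9%), with a median log2 fold change of -0.33; edgeR had 2 higher at an unadjusted p under 0.05, and DESeq2 and limma-voom 0. SiO2 day 7 had 3 higher and 2 lower (23.4% and 20.6%) with a median of 0.02, next to 9 higher and 1 lower of 15 and a median of 1.19 for the glycolytic enzymes. BLM day 14 had 2 higher and 3 lower (20.7% and 18.5%), and SiO2 day 63 had 2 and 2 (15.3% and 12.5%). Whether the glycolytic enzymes and the other targets differ as sets was not tested.

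Ndrg1, a stress gene strongly induced by hypoxia in many cells, was highest in SiO2 at day 63. Ndrg1 was at 16, 19.8 and 18.2 CPM in the untreated libraries, at 24.9, 24 and 21.2 CPM at BLM day 7, at 35.2, 35.5 and 25.9 CPM at BLM day 14 and at 24.8, 22 and 30.8 CPM at BLM day 63. In SiO2, Ndrg1 was at 46.8, 58.5 and 63.8 CPM at day 7, at 39.7, 53.7 and 41.4 CPM at day 14 and at 68.4, 65 and 71 CPM at day 63. The SiO2 libraries of each day lay above the BLM libraries of that day. Ndrg1 rose in SiO2 day 7 (log2 1.65 ± 0.17, adjusted p = 1.8e-09, edgeR), day 14 (log2 1.32 ± 0.17, adjusted p = 5.9e-07) and day 63 (log2 1.92 ± 0.16, adjusted p = 1.6e-10). Against BLM the difference was log2 1.27 ± 0.16, adjusted p = 9.9e-07 at day 7 and log2 1.39 ± 0.15, adjusted p = 4.9e-08 at day 63 (edgeR). At day 14 it was log2 0.49 ± 0.16, adjusted p = 0.029 by edgeR, lost without BLM day 14 replicate 3 or SiO2 day 14 replicate 2 (adjusted p = 0.20 for either). In BLM it rose at day 14 (log2 0.83 ± 0.18, adjusted p = 0.00033, edgeR). At BLM day 63 the call (log2 0.53 ± 0.18, adjusted p = 0.047, edgeR) was lost without any untreated library or BLM day 63 replicate 1 or 3 (up to 0.28). With the replicate number as a block the adjusted p there was 0.052 (edgeR). The rise from day 14 to day 63 of SiO2 (log2 0.60 ± 0.15, adjusted p = 0.016, edgeR) was lost without SiO2 day 14 replicate 1 or 3 or SiO2 day 63 replicate 3 (up to 0.093). Gm17035 lies over the end of Ndrg1 on the opposite strand.

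Mif encodes a cytokine and HIF target. Mif was at 22.2, 24.3 and 19.6 CPM in the untreated libraries, at 27.2, 35.3 and 23.7 CPM at BLM day 7, at 27.5, 24.4 and 24.2 CPM at BLM day 14 and at 31.8, 25.7 and 24.2 CPM at BLM day 63. In SiO2, Mif was at 64.3, 60.1 and 85.5 CPM at day 7, at 32.6, 27.4 and 30.0 CPM at day 14 and at 34.8, 37.2 and 26.4 CPM at day 63. The 3 SiO2 day 7 libraries, at 60.1 CPM or more, were above all others. Mif rose in SiO2 day 7 against untreated (log2 1.65 ± 0.17, adjusted p = 1.8e-09, edgeR) and against BLM day 7 (log2 1.28 ± 0.16, adjusted p = 1e-06), and fell by SiO2 day 14 (log2 -1.22 ± 0.16, adjusted p = 8e-07). Its call at SiO2 day 63 (log2 0.55 ± 0.18, adjusted p = 0.018, edgeR) was lost without untreated replicate 1 or 3 or SiO2 day 63 replicate 1 or 2 (adjusted p up to 0.095). RefSeq names 3 pseudogenes or related sequences of Mif.

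Bnip3 is a mitophagy receptor induced by HIF-1. Bnip3 was at 23.2, 26 and 32.7 CPM in the untreated libraries, at 27.5, 15.5 and 21.2 CPM at BLM day 7, at 42.3, 37.8 and 49.6 CPM at BLM day 14 and at 53.1, 35.2 and 42.6 CPM at BLM day 63. In SiO2, Bnip3 was at 26.8, 44.5 and 63.1 CPM at day 7, at 37.9, 44.9 and 27.4 CPM at day 14 and at 34.3, 36.4 and 38.6 CPM at day 63. SiO2 day 7 libraries spread widely and overlapped both untreated and BLM day 7, and BLM day 14 and day 63 lay above untreated. The calls were log2 0.69 ± 0.23, adjusted p = 0.019 in BLM day 14, log2 0.70 ± 0.23, adjusted p = 0.043 in BLM day 63 and log2 0.74 ± 0.23, adjusted p = 0.0099 in SiO2 day 7 (edgeR). They were lost without untreated replicate 1 or 2 or BLM day 14 replicate 3 (adjusted p up to 0.097), without untreated replicate 1 or 2 or BLM day 63 replicate 1 or 3 (up to 0.20), and without untreated replicate 1 or SiO2 day 7 replicate 3 (up to 0.18). The day 7 difference between models (log2 1.07 ± 0.23, adjusted p = 0.0021, edgeR) was lost without SiO2 day 7 replicate 3 (adjusted p = 0.054). With the replicate number as a block, the adjusted p of the BLM day 63 change was 0.052 (edgeR). Gm45507 lies over the end of Bnip3 on the opposite strand.

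Vegfa, the angiogenic growth factor and best known HIF target, fell in every treated group. Vegfa was at 58.6, 44.6 and 27.1 CPM in the untreated libraries, at 31.2, 21.9 and 22.1 CPM at BLM day 7, at 8.10, 15.5 and 7.99 CPM at BLM day 14 and at 26.3, 12.3 and 16.8 CPM at BLM day 63. In SiO2, Vegfa was at 21.3, 17.7 and 16.7 CPM at day 7, at 21.3, 16.5 and 28.8 CPM at day 14 and at 22, 18 and 15.5 CPM at day 63. The untreated libraries spread from 27.1 to 58.6 CPM. BLM day 7 and SiO2 day 14 overlapped untreated, the other treated groups lay below it, and BLM day 14 was lowest. Vegfa fell in BLM day 14 (log2 -2.07 ± 0.28, adjusted p = 5e-07, edgeR), BLM day 63 (log2 -1.26 ± 0.25, adjusted p = 0.00083), SiO2 day 7 (log2 -1.26 ± 0.25, adjusted p = 0.00013) and SiO2 day 63 (log2 -1.27 ± 0.25, adjusted p = 0.00022). The changes in BLM day 7 (log2 -0.83 ± 0.25, adjusted p = 0.0099, edgeR) and SiO2 day 14 (log2 -0.99 ± 0.25, adjusted p = 0.0031) were lost without untreated replicate 1 (adjusted p = 0.13 and 0.058), the first also without BLM day 7 replicate 2 (0.056). At day 14 it was higher in SiO2 than in BLM (log2 1.08 ± 0.29, adjusted p = 0.0098, edgeR), lost without BLM day 14 replicate 1 or 3 or SiO2 day 14 replicate 3 (up to 0.092).

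Adm encodes adrenomedullin, a vasodilator peptide. Adm was at 53.2, 53.6 and 30.8 CPM in the untreated libraries, at 24.6, 26.1 and 18 CPM at BLM day 7, at 15.5, 27.4 and 26.2 CPM at BLM day 14 and at 23.1, 17.2 and 21.1 CPM at BLM day 63. In SiO2, Adm was at 39.5, 38.1 and 29 CPM at day 7, at 36.7, 37.5 and 55.2 CPM at day 14 and at 37.7, 33.4 and 31.7 CPM at day 63. All 9 BLM libraries lay below all untreated libraries, and SiO2 libraries overlapped them or adjoined them. Adm fell in BLM day 7 (log2 -1.03 ± 0.21, adjusted p = 0.00029, edgeR), day 14 (log2 -1.01 ± 0.21, adjusted p = 0.00025) and day 63 (log2 -1.19 ± 0.21, adjusted p = 0.00019), and in no SiO2 group past the threshold. SiO2 exceeded BLM at day 14 (log2 0.90 ± 0.21, adjusted p = 0.0024, edgeR); at day 63 the call (log2 0.74 ± 0.21, adjusted p = 0.014) was lost without BLM day 63 replicate 2 or SiO2 day 63 replicate 1 (adjusted p up to 0.077). Gm28863 overlaps the end of Adm on the opposite strand.

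Kdm3a is a histone demethylase induced by HIF-1. Kdm3a was at 155, 146 and 180 CPM in the untreated libraries, at 92.6, 81.9 and 87.2 CPM at BLM day 7, at 74, 84.9 and 79.6 CPM at BLM day 14 and at 135, 136 and 114 CPM at BLM day 63. In SiO2, Kdm3a was at 102, 87.4 and 103 CPM at day 7, at 99, 95.6 and 109 CPM at day 14 and at 112, 113 and 148 CPM at day 63. The day 7 and day 14 libraries of both models lay below all untreated ones, and day 63 libraries came nearer to them. Kdm3a fell in BLM day 7 (log2 -0.87 ± 0.12, adjusted p = 1e-06, edgeR), BLM day 14 (log2 -1.0 ± 0.12, adjusted p = 6.2e-08), SiO2 day 7 (log2 -0.71 ± 0.12, adjusted p = 1e-05) and SiO2 day 14 (log2 -0.66 ± 0.12, adjusted p = 8.5e-05). Its call in SiO2 day 63 (log2 -0.36 ± 0.12, adjusted p = 0.02, edgeR) was lost without untreated replicate 3 or SiO2 day 63 replicate 1 or 2 (adjusted p up to 0.12). The call between models at day 14 (log2 0.35 ± 0.12, adjusted p = 0.046, edgeR) was lost without any of the 6 libraries (up to 0.18). Higd1a, a mitochondrial protein of the hypoxia response, was between 5.37 and 13.1 CPM in all libraries and was called nowhere. Ankrd37 was at 0 counts in 13 libraries.

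**Figure D5:**
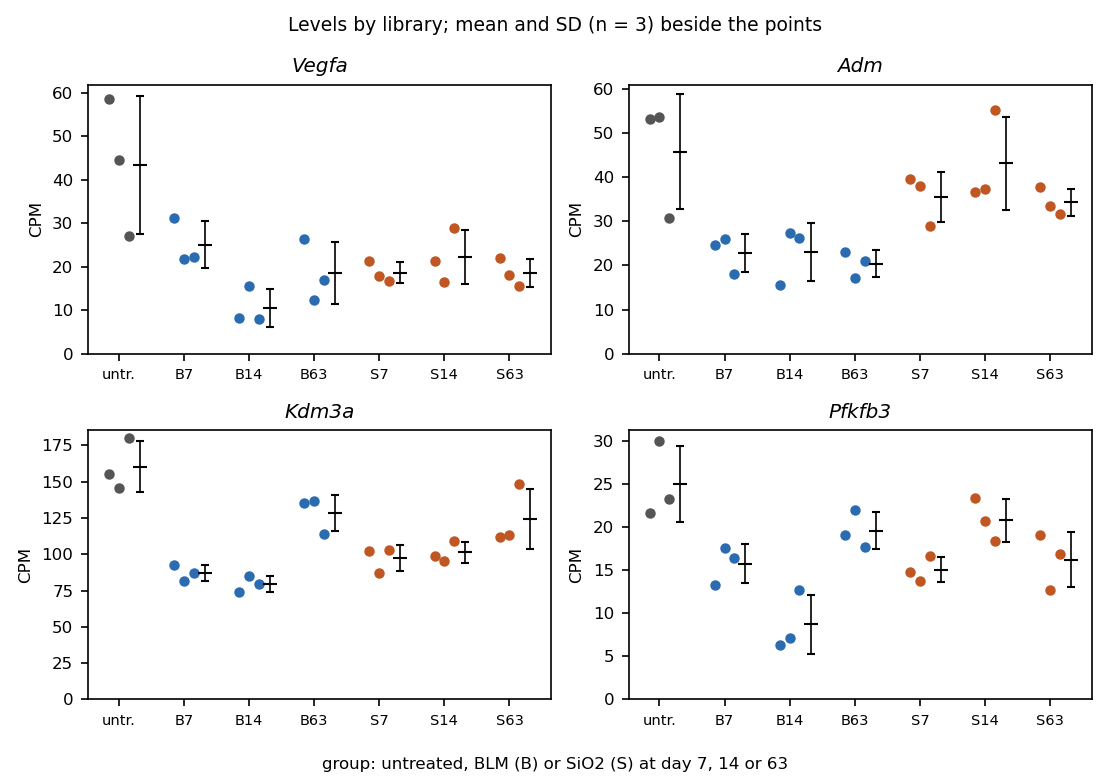
CPM per library (points) with group mean and SD (n = 3), on linear axes that start at 0, for 4 genes that were lower than untreated. Adm is below all untreated libraries in the 9 BLM libraries, and Vegfa is lowest in BLM day 14, at 7.99 to 15.5 CPM.

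Other genes of the same pathways are described from lists. Of 19 tested further genes of glycolysis and pyruvate metabolism, 3 rose and 3 fell in SiO2 day 7 (all genes 23.4% and 20.6%) and 2 rose and 3 fell in BLM day 14 (20.7% and 18.5%), shares at or below those of all genes. Bpgm, which makes 2,3-bisphosphoglycerate, rose in all 6 groups, from a mean of 11 CPM in untreated to 112 CPM in BLM day 14 (log2 3.31 ± 0.24, adjusted p = 3.1e-12, edgeR). Eno2, the neuronal enolase, rose in SiO2 day 63 (log2 1.09 ± 0.15, adjusted p = 1.7e-06, edgeR). Gpd1l fell in SiO2 day 7 (log2 -1.35 ± 0.21, adjusted p = 5.1e-06, edgeR). Of 15 tested genes of the pentose phosphate pathway and glucose side branches, 2 rose and 3 fell in SiO2 day 7 (23.4% and 20.6% of all genes); H6pd fell in all 6 groups, by 0.58 to 0.85 on the log2 scale.

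Of 22 tested other hypoxia-induced genes, 13 rose and 2 fell in SiO2 day 7 (all genes 23.4% and 20.6%), 10 rose and 2 fell in BLM day 14 (20.7% and 18.5%), and 4 rose and 2 fell in BLM day 63 (6.02% and 5.48%). Ddit4, an inhibitor of mTOR signalling, went from a mean of 3.24 CPM in untreated to 108 CPM in SiO2 day 7 (log2 4.99 ± 0.30, adjusted p = 3.3e-14, edgeR). It exceeded BLM at day 7 by 2.35 ± 0.23 and at day 63 by 2.44 ± 0.33 on the log2 scale, and was below BLM at day 14 (-0.97 ± 0.25), all called by edgeR. Bhlhe40 rose in all 6 groups, by 1.14 to 1.61 on the log2 scale. Among 11 tested regulators of the HIF pathway, Cited2, a competitor of HIF-1α for its coactivator, fell in all 6 groups and most in SiO2 day 7 (log2 -2.03 ± 0.20, adjusted p = 7.8e-10, edgeR). Cited2 was picked for its small adjusted p against untreated. It does not stand for the list, whose counts are not given here.

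Genes of cell division were higher than untreated in both day 7 groups and in BLM day 14. The summed level of 18 proliferation genes was 34.7 CPM in untreated, 335 CPM in BLM day 7, 397 in SiO2 day 7, 188 in BLM day 14, 63.7 in SiO2 day 14, 27.3 in BLM day 63 and 57.1 in SiO2 day 63 (means of 3 libraries). Of the 17 tested, 17 rose in BLM day 7 (16.7% of all genes) and 17 in SiO2 day 7 (23.4%). In BLM day 14, 16 rose (20.7%), in SiO2 day 14, 2 (13.6%), and in SiO2 day 63, 1 (15.3%). From day 7 to day 14 of BLM, 3 of the 17 fell (4.82% of all genes). Over that interval 0 of the 15 glycolytic enzymes were called by edgeR, DESeq2 or limma-voom (all genes 5.20% higher and 4.82% lower). At an unadjusted p in edgeR, 4 of the enzymes were higher and 0 lower. Their median against untreated was 0.11 at BLM day 7 and 0.54 at BLM day 14. Between the models at day 7, 16 of the 31 genes differed. There 0 of the 17 were higher (5.29% of all genes) or lower (5.10%) at an adjusted p under 0.05 (edgeR). These counts of 0 are near the shares of all genes. At an unadjusted p in edgeR 1 was higher, and DESeq2 and limma-voom called 0. At day 14, 13 of the 17 were lower in SiO2 than in BLM (8.03% of all genes), as were 4 of the 15 enzymes, and at day 63, 5 of the 17 were higher in SiO2 (9.13%).

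Markers of other cells also differed between groups. Summed pericyte and smooth muscle markers were at 21.7 CPM in untreated, 50.4 in BLM day 7, 102 in SiO2 day 7, 99.7 in BLM day 14 and 87.4 in SiO2 day 63. Most of that sum was Pdgfrb, which fibroblasts also express, and Mcam was at 0 in 12 libraries. Summed myeloid markers, 9 of 10 listed being present, were at 4.91 CPM in untreated, 18.7 in BLM day 7, 11.9 in SiO2 day 7, 25.9 in SiO2 day 14 and 22.2 in SiO2 day 63, with Ptprc at 0 in 11 libraries. Summed lymphocyte markers, 5 of 6 present, were at 4.31 CPM in untreated, 44.5 in BLM day 7, 55.0 in SiO2 day 7, 11.8 in BLM day 14, 28.6 in SiO2 day 14, 4.27 in BLM day 63 and 38.8 in SiO2 day 63. Nearly all of that sum was the chemokine gene Ccl5, at 54.9 CPM in SiO2 day 7. Summed epithelial markers, 8 of 8 present, were at 8.79 CPM in untreated, 29.6 in BLM day 7, 24.5 in SiO2 day 7 and 4.01 to 8.54 in the other groups. The surfactant genes Sftpc and Sftpb, at 11.5 and 8.73 CPM in SiO2 day 7, made up most of it there. Summed endothelial markers were lowest in SiO2 day 7 (10.0 CPM, against 26.6 in untreated). Summed mesothelial markers were at 115 CPM in untreated, 44.4 in SiO2 day 7, 45.6 in BLM day 63 and 45.3 in SiO2 day 63. In the other treated groups they were at 83.2 to 137 CPM. Ribosomal RNA entries took 0.174% to 0.219% of counts in untreated and 0.290% to 0.493% in treated libraries. The part of cell division, of these markers and of ribosomal RNA in the results above was not tested.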

How the data were processed

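Reads were 3′SAGE tags from an Ion Proton sequencer, per the labels' protocols. Counts of reads per gene symbol were deposited by the authors, 1 table for each of the 21 libraries; Bowtie2 2.2.5 and build mm10 are named in the submitters' processing notes, and the counting tool, its annotation and its strand setting are not given in the sources used here. Groups came from the titles. Totals were 2080636 to 4477283 counts. edgeR 4.0.16 (R 4.3.3) kept 11669 symbols by filterByExpr (minimum count 10), scaled by TMM and fitted 1 quasi-likelihood model of 7 groups with 14 residual degrees of freedom; SE is the log2 fold change over the root of F. P-values were adjusted by Benjamini-Hochberg over all tested genes, and the script was tested on simulated data. All 33 genes are accounted for: values are given by library where a gene was called at a log2 change of 1 or more against untreated or between the models, or where isozymes differed in call. The genes and lists were chosen with earlier results of these data known. Alternatives were RLE (DESeq2's size factors) and upper quartile scaling, no filter, the DESeq2 1.42.0 Wald test, limma-voom 3.58.1, a fit of the compared groups only, the replicate number as a block, and leaving out each library. Same-numbered libraries of different groups did not deviate together (63 pairs, correlation -0.12 to 0.0616), so the numbers do not pair the samples. Libraries of a group differed by more than counting noise (chi-square per degree of freedom 2.79 to 7.89).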

Additional observations from a re-analysis of the deposited data

Results flagged for a closer look

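The genes below changed differently over time in the 2 models, by a test of the difference itself (edgeR, adjusted p under 0.05). Each value is the log2 change in SiO2 minus the log2 change in BLM over the same interval.

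From day 7 to day 14 the lactate and glucose carriers changed more negatively in SiO2: Slc16a3 by -3.04 ± 0.26, Slc16a1 by -0.72 ± 0.21 and Slc2a1 by -0.58 ± 0.14. Among the enzymes the difference was -2.50 ± 0.41 for Eno1, -1.47 ± 0.26 for Gapdh, -1.35 ± 0.22 for Tpi1 and -1.21 ± 0.32 for Pgk1. It was -1.10 ± 0.19 for Ldha, -1.0 ± 0.17 for Pgam1, -0.99 ± 0.18 for Pkm and -0.95 ± 0.21 for Pfkl. Hif1a differed by -1.48 ± 0.21, Bnip3 by -1.31 ± 0.32, Mif by -1.03 ± 0.24 and Ndrg1 by -0.78 ± 0.22. Vegfa (1.51 ± 0.40) and Pfkfb3 (1.29 ± 0.31) differed in the positive direction. The call of Slc16a1 was lost without BLM day 7 replicate 3 (adjusted p = 0.053, edgeR), and that of Ndrg1 without SiO2 day 7 replicate 3 (adjusted p = 0.051).

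From day 14 to day 63 the change was more positive in SiO2 for Slc16a1 (1.49 ± 0.21), Eno1 (1.27 ± 0.44), Ldha (0.96 ± 0.20) and Ndrg1 (0.90 ± 0.22). The same held for Slc2a1 (0.89 ± 0.14), Hk2 (0.80 ± 0.28), Hif1a (0.78 ± 0.21) and Pgam1 (0.76 ± 0.18). It was more negative for Pfkfb3 (-1.49 ± 0.30) and Pfkp (-1.20 ± 0.34). The calls of Hk2 and Eno1 were each lost without any of 9 of the 12 libraries of these groups (edgeR adjusted p up to 0.14 and 0.12). For Hk2 the call stayed without BLM day 14 replicate 1, SiO2 day 14 replicate 3 or BLM day 63 replicate 3, and for Eno1 without BLM day 14 replicate 2, SiO2 day 14 replicate 1 or SiO2 day 63 replicate 1. The Pfkp call was lost without SiO2 day 14 replicate 3 (adjusted p = 0.093). The levels behind these values are those given by library above, and the cause of the differences was not tested.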

How the results depend on the processing

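No direction of a called change reversed in any alternative. Of 194 calls among 465 tests of the 31 genes, 148 were kept in every alternative and 46 were lost in at least 1. The number of genes called stayed within 1.5 times in all alternatives that kept all libraries. Leaving out a library moved it further in 2 comparisons: from 5 to between 3 and 5 for BLM day 14 against day 7 (3 without BLM day 7 replicate 2 or 3 or BLM day 14 replicate 2), and from 2 to between 0 and 1 for SiO2 day 63 against day 14, whichever library was left out; fewer libraries enter those fits. With the replicate number as a block, 462 of the 465 tests kept their outcome, called or not. Of the calls 2 were lost (Bnip3 and Ndrg1 in BLM day 63, adjusted p = 0.052 for each, edgeR), and 1 was gained. Only 5 of 21 libraries correlated best with their own number. The mean correlation was -0.0055 for the same number and 0.0027 for other numbers, no sign of pairing. The Ndrg1 call in BLM day 63 was lost in 6 alternatives that kept all libraries. Upper quartile scaling shifted the median of all genes by at most -0.081 on the log2 scale. With it, SiO2 day 14 had 1292 of all genes higher and 1593 lower than untreated, against 1583 and 1224 with TMM; the 31 genes then counted 10 and 4 against 11 and 3. BLM day 63 then had 2 higher and 2 lower against 4 and 2, and SiO2 against BLM at day 63 had 8 higher and 1 lower against 8 and 0. The counts of Pfkfb4 and Ankrd37 were too low for a test at this depth. Pdk1, Egln3, Pfkm and Eno1 were under 10 CPM in most libraries, and their SE was correspondingly wide. Epas1, Hk1, Ldhb and Pfkp were also under 10 CPM in most libraries. For Epas1 these were all the untreated and BLM libraries, so few counts lie behind its level there.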
